A study of Mus musculus with 12 samples.

Results

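The 10 genes described here encode integrin subunits of leukocytes that were followed in microglia, namely Itgam, Itgb2, Itgax, Itgal, Itga4, Itga6, Itgav, Itgb1, Itgb5 and Itga9. They were taken by symbol from the table's gene column, and all windows lying within 100 kb of the annotated transcription start site (TSS) of that gene were kept. This gave 107 of the 67822 windows in the table and 10 of the 15879 genes that had a window within that distance. H3K27ac, an acetylation of histone H3 found at active promoters and enhancers, was measured by chromatin immunoprecipitation and sequencing (ChIP-seq) in forebrain microglia of Nlrp3 knockout mice (labelled NLRP3KO or Nlrp3-/-), which carry a Cias1 knockout allele from Millennium Pharmaceuticals, and of wild-type mice (WT) on a C57BL/6N background. Each genotype had 3 H3K27ac libraries and 3 libraries of input chromatin, and no further treatment, age or sex is given in the labels. Cells were enriched by magnetic selection for CD11b, the protein made from Itgam, so its presence was used to choose the cells and H3K27ac at Itgam is no finding about them. The labels do not say whether replicates came from separate animals, so p-values may measure technical spread.

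Integrins are receptors made of 1 alpha and 1 beta subunit that bind matrix proteins or counter-receptors on other cells, and they switch between inactive and active shapes through talin and kindlin at their cytoplasmic tails. The beta subunit encoded by Itgb2, CD18, is restricted to leukocytes. Among the genes followed here it pairs with the alpha subunits of Itgam (complement receptor CR3), Itgax (CD11c) and Itgal (CD11a, which forms LFA-1). The beta subunit of Itgb1 pairs with many alpha subunits, among them those of Itga4, Itga6, Itga9 and Itgav, and the product of Itgb5 pairs with that of Itgav. In the brain, microglia are known for high CR3, whereas the Itga4 product (CD49d) is known chiefly from blood-derived leukocytes, which use it to cross vessels.

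The promoters of 4 of these genes are shown because their windows carry the results that follow. All are from RefSeq (GRCm38.p6, plus strand, 5′ to 3′), run from 250 bases before to 50 after the annotated start, and lie inside the window nearest to the TSS of their gene. Itgax lies at chr7:128129300-128129599, Itgam at chr7:128062390-128062689, Itga4 at chr2:79255176-79255475 and Itgb5 at chr16:33829415-33829714. Capitals mark matches, on either strand, to GAGGAA (a purine box of the kind bound by PU.1), TGTGGT (RUNX type), GGGCGG (GC box) and TGANTCA (AP-1 type).
Itgax: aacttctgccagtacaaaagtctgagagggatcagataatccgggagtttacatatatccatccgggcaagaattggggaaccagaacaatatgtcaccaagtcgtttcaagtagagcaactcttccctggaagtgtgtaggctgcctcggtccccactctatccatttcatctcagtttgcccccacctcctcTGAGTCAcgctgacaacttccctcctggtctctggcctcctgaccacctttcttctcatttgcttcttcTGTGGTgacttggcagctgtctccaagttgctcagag
Itgam: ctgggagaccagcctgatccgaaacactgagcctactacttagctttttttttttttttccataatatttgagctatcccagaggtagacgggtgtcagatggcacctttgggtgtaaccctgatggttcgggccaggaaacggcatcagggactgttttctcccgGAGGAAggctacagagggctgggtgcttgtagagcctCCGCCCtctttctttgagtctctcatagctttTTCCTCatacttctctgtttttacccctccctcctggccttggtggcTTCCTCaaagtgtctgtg
Itga4: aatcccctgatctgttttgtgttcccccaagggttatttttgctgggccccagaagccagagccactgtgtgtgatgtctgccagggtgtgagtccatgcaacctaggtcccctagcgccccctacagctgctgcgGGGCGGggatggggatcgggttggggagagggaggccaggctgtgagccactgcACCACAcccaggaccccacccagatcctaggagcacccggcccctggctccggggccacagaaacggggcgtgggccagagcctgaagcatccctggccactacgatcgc
Itgb5: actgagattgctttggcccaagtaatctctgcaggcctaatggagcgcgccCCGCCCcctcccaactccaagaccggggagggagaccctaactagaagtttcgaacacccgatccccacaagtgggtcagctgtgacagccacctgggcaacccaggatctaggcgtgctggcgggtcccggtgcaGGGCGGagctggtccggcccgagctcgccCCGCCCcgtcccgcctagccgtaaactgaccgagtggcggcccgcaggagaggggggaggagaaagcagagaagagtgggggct

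Among the 32851 RefSeq promoters of this length, 28.3% held GAGGAA, 16.8% TGTGGT, 35.7% GGGCGG and 7.81% TGANTCA. The Itgam promoter held 3 matches to GAGGAA and 1 to GGGCGG, and no other motif searched. The Itgax promoter held 1 TGTGGT at position 13 and 1 TGANTCA at position -56 from the start, the Itga4 promoter 1 TGTGGT and 1 GGGCGG, and the Itgb5 promoter 3 GGGCGG. None of these motifs overlaps another in the sequences shown. By base composition, Itgam and Itgax had 50.3% and 50% G or C with 6 and 5 CpG dinucleotides, near the median of all promoters (52.7% and 7 CpG). The promoters of Itgav (67.3%, 24 CpG), Itgb1 (67.3%, 27 CpG) and Itgb5 (65.7%, 20 CpG) were richer in both, and that of Itga4 stood at 64.3% with 10 CpG. Promoter entries were matched for 7 of the 10 genes. The entry for Itga9 belongs to an internal start site (56.7%, 10 CpG) and not to the start of the long transcript. A match is a description of the letters and no evidence of binding.

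The H3K27ac libraries held 4531757 to 5028129 tags in knockout and 3726550 to 4492763 in wild type, with a median of 14 to 16 and 12 to 13 tags per window, so most single windows rest on few tags. The targeted gene, Nlrp3, had a window at each of 2 annotated start sites. The knockout libraries held 1, 0 and 16 tags in one, against 180, 180 and 195 in wild type (log2 fold change -5.19, SE 0.50, edgeR quasi-likelihood adjusted p = 4.88e-06). In the other they held 17, 20 and 43, against 138, 91 and 119 in wild type (log2 fold change -2.31, SE 0.36, edgeR adjusted p = 0.00338). Knockout replicate 3 held more tags in each than the other knockout libraries. Tags at Y-linked promoters numbered 206, 183 and 239 in knockout and 0, 230 and 199 in wild type, so wild-type replicate 1 stands apart; its part in the results was not tested beyond leaving it out. Promoter windows of 16 microglia marker genes carried a median of 15.0 times input in knockout and 13.2 times in wild type, against 0.833 to 5.15 and 0.915 to 2.96 for 7 lists of markers of other cell types. Those 7 medians rest on few promoter windows: 1 each for lymphocytes with NK cells and for neurons, 2 for astrocytes and at most 9. In bulk chromatin, fewer cells of a type and less signal per cell cannot be told apart.

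Most integrin windows tested carried H3K27ac above input in both genotypes. Of the 107 windows, 90 had enough tags to test. Of these, 81 were above input in knockout and 75 in wild type (edgeR quasi-likelihood, adjusted p under 0.05), and all 75 were among the 81. Over all windows tested the shares above input were 74.2% in knockout and 71.5% in wild type. A window could pass the tag filter through its H3K27ac libraries alone. The filter thus favours windows above input, and these shares do not cover the windows left untested. These directions rest on scaling by total tags: trimmed mean of M values (TMM) scaling, which sets the median window near equality, left 10 and 9 integrin windows above input, and only 54 and 55 of the 90 with a ratio above 1, against 87 and 87. Of the total tags, 39.1% to 46.1% lay in the windows of the table in H3K27ac libraries, against 8.31% to 9.32% in input libraries. The median ratio of H3K27ac to input, each in CPM (tags scaled to a fixed total per library) with 0.5 added, was 5.04 in knockout and 4.87 in wild type for the integrin windows, against 3.22 and 2.93 for all windows. For the 19 windows within 1 kb of a TSS it was 10.2 in knockout and 6.24 in wild type (5.99 and 5.45 for all such windows), and for the 88 further away 4.72 and 4.54 (2.51 and 2.32). These ratios depend on the input of each genotype as well. At the TSS windows of Itgb1 and Itgam they were 12.1 and 10.4 in knockout, against 6.34 and 6.27 in wild type. The log2 fold changes of H3K27ac there, knockout over wild type, were -0.04 and -0.06. Over all tested TSS windows they ran from -0.18 (Itgb2) to 0.76 (Itga6). Most of these windows lay inside genes: 73 in introns, 3 in exons and 12 at promoters, with 19 intergenic. By the site lists from which windows were merged, 83 stood in both lists, 6 in the knockout list alone and 18 in the wild-type list alone, or 77.6%, 5.61% and 16.8%, against 75.5%, 8.18% and 16.3% of all windows.

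Per window, which has the same length for every gene, the genes differed in H3K27ac level. Itgb2 led with a mean of 11.2 CPM per window over the 6 H3K27ac libraries (10.2 to 14.4), higher than 87.2% of genes, followed by Itgb1 with 9.91. Itgb5 (7.30), Itgam (7.29), Itgax (6.97), Itgav (6.67) and Itga9 (5.85) formed the middle. Itga6 (3.34), Itga4 (1.68) and Itgal (0.826, higher than 18.6% of genes) came last. The ranges of neighbours in this order overlapped over the 6 libraries, except between Itga9 and Itga6. Thus, of the genes followed here, the beta subunit of the leukocyte family and its partners Itgam and Itgax were at high or middle levels. Itgal, which encodes another of its partners, was lowest.

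**Figure D1:**
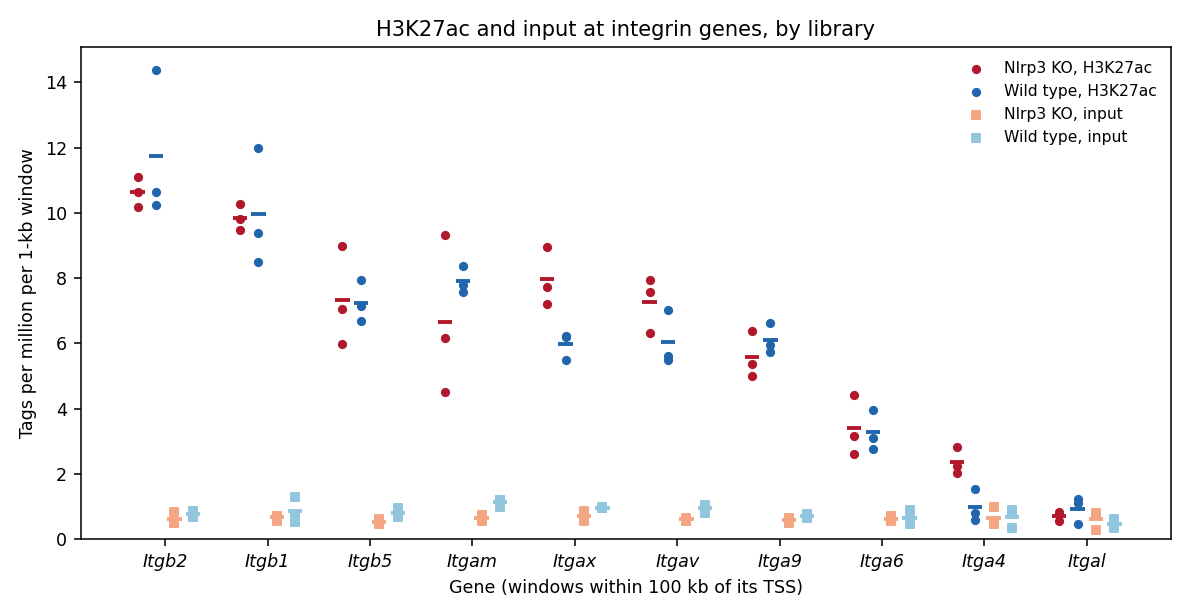
CPM per 1-kb window for the 10 integrin genes in each library, as H3K27ac circles and input squares, with knockout in red shades left of wild type in blue shades and bars at group means. Itgb2 is highest with 10.6 CPM in knockout and 11.8 in wild type, and Itgal lowest with 0.710 and 0.941, beside an input of 0.619 in knockout and 0.457 in wild type.

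At the window nearest to the TSS the order differed, with Itgax first at 15.5 CPM over the 6 libraries and then Itgb2 (9.73), Itgav (8.68), Itgb1 (8.60), Itgam (8.38) and Itgb5 (5.74). Itga6 (3.32), Itga9 (2.78), Itga4 (2.26) and Itgal (0.809) followed, and ranges of all neighbours overlapped. The Itga9 start was thus weak although that gene held the strongest single window of the set, and at Itgax the windows beyond 1 kb of the start were weaker than those at it.

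**Figure D2:**
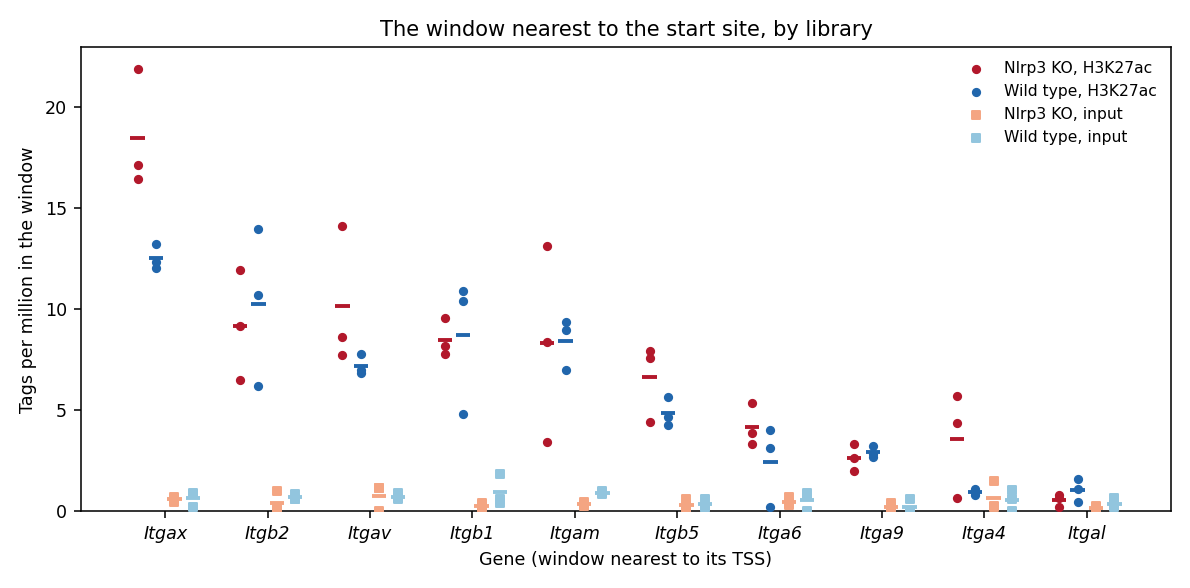
CPM in the window nearest to the TSS of each gene, by library, with H3K27ac as circles, input as squares, knockout in red shades left of wild type in blue shades, and bars at group means. At Itgax the 3 knockout libraries (16.4 to 21.8 CPM) lie above the 3 wild-type libraries (12.02 to 13.2 CPM), and at Itga4 the libraries overlap.

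Between genotypes, no integrin gene or window passed the test. All 10 genes were tested on their summed tags, and edgeR's quasi-likelihood test with Benjamini-Hochberg adjustment called 0 of them, against 0.206% of all genes tested; DESeq2 also called 0. At an unadjusted p under 0.05 there were 2, Itga4 and Itgax, against 5.77% of all genes. Of the 107 windows, 85 had enough tags to test, and 0 were called by edgeR or by DESeq2, against 0.0595% of all windows. At an unadjusted p under 0.05 there were 7 windows, 3 higher and 4 lower in knockout, against 4.69% of all windows. The log2 fold change, knockout over wild type, was positive for 5 of 10 genes and for 45 of 85 windows (52.9%, against 50.4% of all windows), with a median of 0.05 over integrin windows and 0.0042 over all. Corrected for input (H3K27ac minus input, knockout minus wild type), 9 of 10 genes were positive, with a median of 0.40 against 0.18 over all genes, and 0 were called. By that median, most of all genes tested were positive too. Mean input was lower in knockout than in wild type for every integrin gene but Itgal (7.31 against 12.5 CPM at Itgam, 2.48 against 1.83 CPM at Itgal). No such share was taken over all genes, so lower input cannot be called particular to the integrin genes. The part of input in the count of positive genes was not tested. Summed per gene, every knockout library was above every wild-type library for 2 genes, Itgax and Itga4, and below for 0, against 4.78% and 4.85% of all genes. In 4 tested windows every knockout library was above every wild-type library in CPM, and in 6 every knockout library was below, against 5.19% and 4.91% of all windows.

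**Figure D3:**
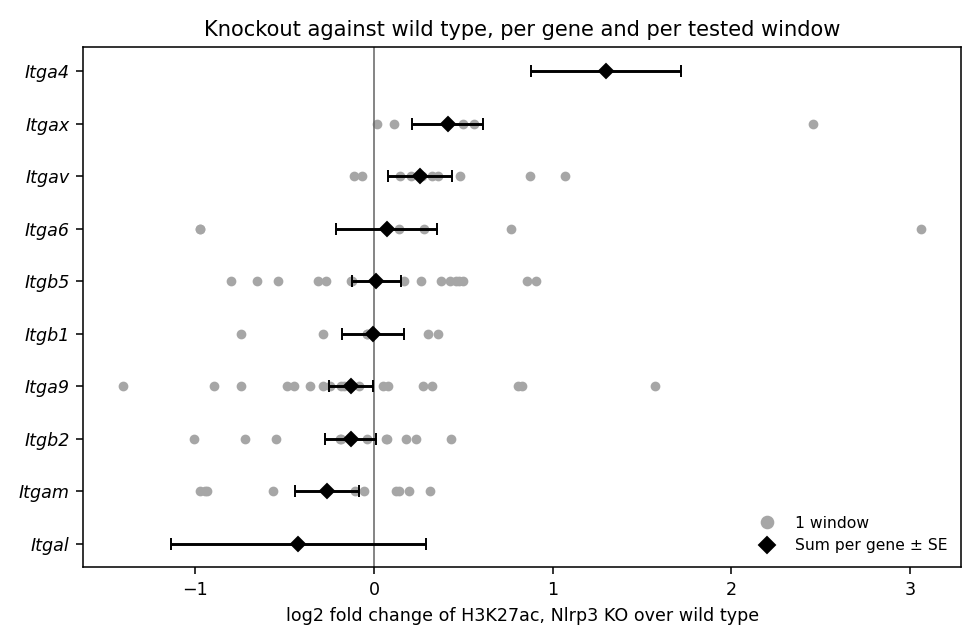
Fitted log2 fold change of H3K27ac, knockout over wild type, for each integrin gene (diamond, sum of its windows, bars of 1 SE) and for each of its tested windows (grey circles). Itga4 is highest at 1.30 and Itgal lowest at -0.42, neither past the adjusted threshold, and none of the windows of either gene had enough tags to be tested.

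Itgb2, encoding CD18, had 11 windows, all above input in both genotypes. Its summed H3K27ac was 122, 112 and 117 CPM in the 3 knockout libraries, against 113, 117 and 158 CPM in wild type. Wild-type replicate 3 stood above the rest, and the other wild-type libraries lay inside the knockout range. The log2 fold change was -0.13 (SE 0.14, edgeR adjusted p = 0.974). Its strongest window, in intron 1 at 6595 bp from the TSS (chr10:77536443-77537443), held 97, 101 and 131 tags in knockout and 76, 83 and 171 in wild type, and exceeded 95.8% of all windows. The TSS window held 54, 46 and 32 tags in knockout and 23, 48 and 59 in wild type. In both windows the genotypes overlapped. The window with the smallest p, at 20820 bp in intron 8, averaged 17.9 ± 1.77 CPM in knockout and 26.6 ± 8.69 CPM in wild type (SD, n = 3 each; log2 fold change -0.55, edgeR unadjusted p = 0.0494, adjusted p = 0.998). Without wild-type replicate 3 it was -0.29 (unadjusted p = 0.316).

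Itgam, encoding the CD11b chain of CR3, also had 11 windows, of which 10 were tested against input and 10 passed in knockout and 9 in wild type. Its sums were 67.7, 102 and 49.5 CPM in knockout and 85.9, 83.5 and 92.1 CPM in wild type. The knockout libraries spread on both sides of the wild-type ones (73.2 ± 26.9 against 87.2 ± 4.47 CPM, SD, n = 3 each), and the log2 fold change was -0.26 (SE 0.18, edgeR adjusted p = 0.931). It was -0.55 without knockout replicate 2 (edgeR adjusted p = 0.670) and -0.10 without knockout replicate 3. The TSS window held 38, 66 and 17 tags in knockout and 26, 42 and 38 in wild type, with knockout replicate 2 highest and replicate 3 lowest. The strongest window lay at 26665 bp in intron 12 of 29 and held 46, 84 and 42 tags in knockout and 41, 38 and 55 in wild type. An intergenic window at -13647 bp (chr7:128048493-128049493) held 39, 42 and 25 tags in knockout against 45, 57 and 72 in wild type. Scaled to depth, the knockout libraries there were all below the wild-type ones (7.34 ± 1.97 against 13.9 ± 2.69 CPM, SD, n = 3 each), and the fitted log2 difference was -0.93 (SE 0.36, edgeR adjusted p = 0.998). The window at -3923 bp, singled out after its values were seen, had 6.05 ± 4.16 CPM in knockout and 11.4 ± 0.812 CPM in wild type (log2 fold change -0.94, edgeR adjusted p = 0.998).

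Itgax, encoding CD11c, lies next to Itgam on chromosome 7 and had 7 windows. Its sums were 62.7, 54.1 and 50.5 CPM in knockout, against 43.5, 43.6 and 38.5 CPM in wild type. All knockout libraries were above all wild-type libraries. The log2 fold change was 0.41 (SE 0.20, edgeR unadjusted p = 0.0457, adjusted p = 0.854), and it stayed between 0.33 and 0.49 as each library was left out. The strongest window, with 31.7% of the tags, covers the promoter shown above. This window, at -60 bp (chr7:128129008-128130008), held 99, 86 and 81 tags in knockout and 46, 54 and 56 in wild type, or 18.5 ± 2.95 CPM against 12.5 ± 0.626 CPM (SD, n = 3 each). The groups did not overlap there, but the log2 fold change of 0.56 (SE 0.29) missed the threshold (edgeR unadjusted p = 0.0651, adjusted p = 0.998). The window at -573 bp, which shares tags with it, held 87, 112 and 50 tags in knockout and 48, 50 and 51 in wild type, with 1 knockout library among the wild-type ones. The smallest p in the gene came from intron 14 at 8980 bp (chr7:128138048-128139048), with 25, 32 and 16 tags in knockout and 2, 9 and 0 in wild type. It had a fitted difference of 2.46 on the log2 scale (SE 0.90; adjusted p by edgeR 0.963), or 4.19 without wild-type replicate 2, and H3K27ac over input was 5.82 in knockout and 1.54 in wild type. Windows at -19062 and -14015 bp lie inside the body of Itgam, and the farther was above input in neither genotype and the nearer had too few tags to test.

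Itgal, encoding CD11a, was the weakest of the set, with 4 windows and sums of 3.31, 2.98 and 2.23 CPM in knockout and 1.88, 4.45 and 4.96 CPM in wild type. Its summed H3K27ac over input was 1.12 in knockout and 1.83 in wild type. The TSS window held 3, 4 and 1 tags in knockout and 6, 5 and 2 in wild type, and the strongest window, at -5869 bp, held 8, 9 and 10 tags against 1, 15 and 6. None of its windows had enough tags to compare genotypes, and the 1 window tested against input passed in neither. The log2 fold change of the sum was -0.42 with an SE of 0.71 (edgeR adjusted p = 0.988; -0.75 without wild-type replicate 1, -0.23 without replicate 2 or 3), so a difference of either sign was not detectable at this depth.

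**Figure D4:**
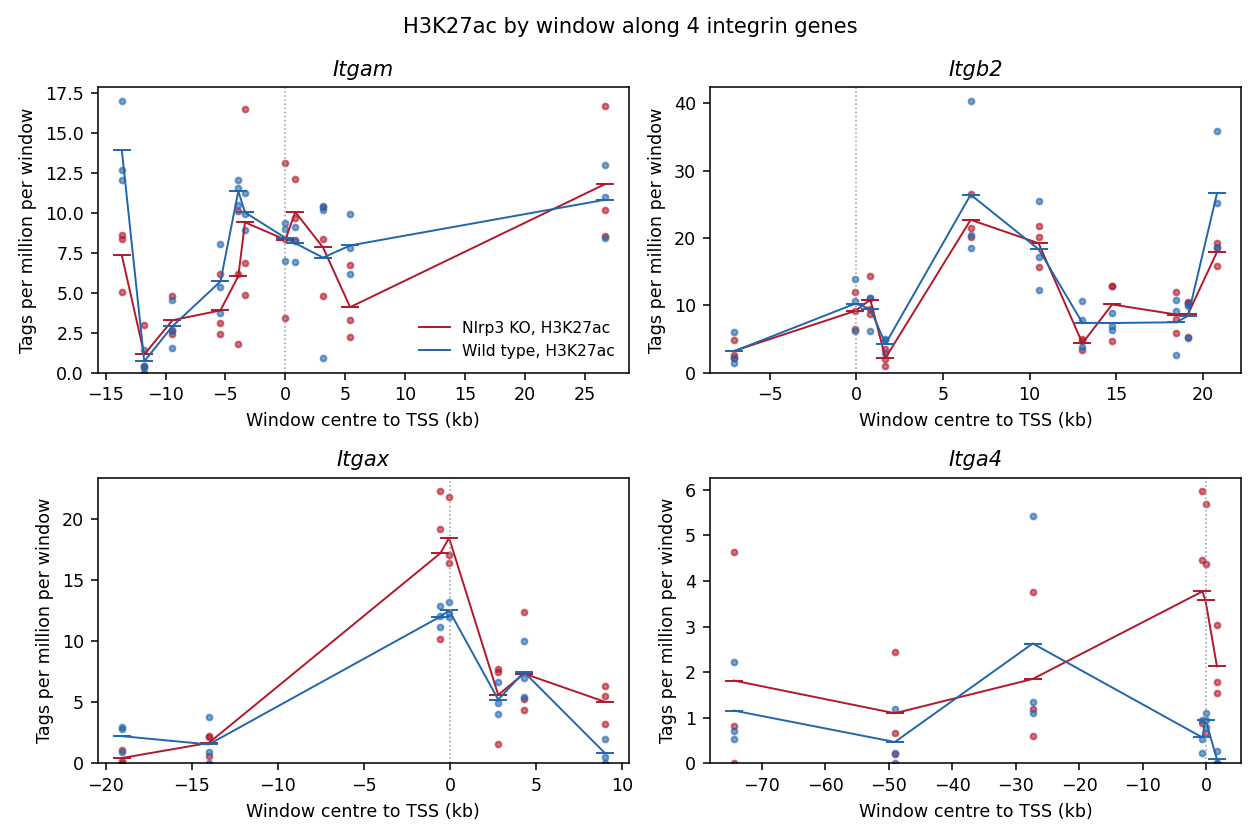
H3K27ac in each window along Itgam, Itgb2, Itgax and Itga4, in CPM against distance from the TSS in kb, with 1 point per library, bars at group means and lines joining them, knockout in red and wild type in blue. At the Itgax start the knockout mean is 18.5 CPM and the wild-type mean 12.5 CPM, and at the Itga4 start they are 3.57 and 0.954 CPM, with a y axis of its own for each gene.

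Itgb1, encoding the beta subunit shared by most of the matrix receptors here, had 7 windows, all above input in both genotypes. Its sums were 66.4, 72.0 and 68.6 CPM in knockout and 59.6, 65.7 and 83.9 CPM in wild type, and the fitted log2 difference was -0.0047 (SE 0.17, edgeR adjusted p = 0.9996). The wild-type libraries enclosed the knockout ones. The strongest window, at 387 bp in intron 1, held 49, 79 and 69 tags in knockout and 35, 53 and 84 in wild type, and the window nearest to the TSS held 37, 39 and 47 against 18, 49 and 44. A cluster of 3 overlapping intergenic windows, at -31829 to -30637 bp, carried a further 7.26 to 13.9 CPM per window as genotype means. The window with the smallest p lay at -4964 bp and held 14, 25 and 16 tags in knockout and 19, 7 and 54 in wild type, with wild-type replicate 3 alone above the others; without that library its log2 fold change was 0.20, against -0.74 with it and -1.19 without wild-type replicate 2.

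Itga4, encoding the CD49d chain of VLA-4, which binds VCAM1 and fibronectin, had the largest fold change of the set on few tags. The tags of its 6 windows summed to 55, 68 and 84 in knockout, against 13, 22 and 39 in wild type. In CPM the sums were 12.1, 13.5 and 17.1 against 3.49, 4.90 and 9.21. Tags shared by overlapping windows enter these sums for each window. The sums did not overlap (log2 fold change 1.30, SE 0.42, edgeR unadjusted p = 0.0043, adjusted p = 0.478). The promoter shown above did overlap: the window at -69 bp (chr2:79254857-79255857) held 3, 22 and 28 tags in knockout and 3, 5 and 4 in wild type, and the window at -565 bp, with which it shares tags, 4, 30 and 22 against 2, 1 and 4. In CPM, knockout replicate 1 was thus below the wild-type libraries at -69 bp and within their range at -565 bp, and 21 of its 55 tags came from a window at -74420 bp where the other knockout libraries had 0 and 4. An intron 2 window at 1736 bp held 7, 9 and 15 tags in knockout and 1, 0 and 0 in wild type. Both promoter windows were above input in knockout (edgeR adjusted p = 0.0187 at -565 bp and 0.0146 at -69 bp) and not in wild type (0.422 and 0.557), with ratios to input of 3.17 and 3.47 in knockout and 0.698 and 1.38 in wild type. The difference between genotypes in that ratio, tested as an interaction, had an unadjusted p of 0.0208 at -565 bp and 0.199 at -69 bp, and an edgeR adjusted p of 0.999 at each.

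The log2 fold change of Itga4 ranged from 1.03 without wild-type replicate 1 to 1.73 without wild-type replicate 3, with an edgeR adjusted p no lower than 0.274 in any alternative. It was 0.65 (SE 0.58) in windows beyond 1 kb of the TSS. Since blood-derived leukocytes are known for this integrin, markers of monocytes and neutrophils are given beside it: 12 of 18 listed genes had a window, and their summed level ranged from 311 to 332 CPM in knockout and 277 to 357 CPM in wild type. Of these tags 72.1% lay at Csf3r and Nr4a1. Their H3K27ac over input was 21.2 and 11.3 in knockout and 15.8 and 11.1 in wild type. The summed level thus mainly follows these genes and is no measure of monocyte or neutrophil content. Whether their tags come from microglia was not tested. S100a9 held 2, 3 and 5 tags in knockout and 0, 1 and 2 in wild type, and Ccr2 held 35, 21 and 21 tags against 22, 17 and 29. Plac8 held 88, 148 and 114 tags in knockout and 55, 95 and 71 in wild type (log2 fold change 0.45, edgeR adjusted p = 0.931), and Ly6c2 averaged 35.7 ± 12.4 CPM in knockout and 46.4 ± 6.81 CPM in wild type (SD, n = 3 each; log2 fold change -0.35, edgeR adjusted p = 0.932). Ly6c2 lay below input, at 0.503 times input in knockout and 0.606 times in wild type, so its tags are no measure of acetylation. The summed level of the list includes them. Markers of lymphocytes and NK cells, with a window for 7 of 16, summed to 85.2 to 125 CPM in knockout and 95.9 to 108 CPM in wild type. Klrb1c and Lck held 75.7% of the tags of that list, so its sum mainly follows them. Among the markers of the list Cd79b had the smallest p, with 42, 7 and 11 tags in knockout and 47, 44 and 32 in wild type (log2 fold change -1.25, SE 0.54, edgeR unadjusted p = 0.0296, adjusted p = 0.803). Lck held 79, 104 and 76 tags in knockout and 46, 70 and 51 in wild type, which overlapped in CPM (log2 fold change 0.41, edgeR adjusted p = 0.944). Cd4 averaged 9.38 ± 0.666 CPM in knockout and 7.14 ± 1.26 CPM in wild type without overlap (SD, n = 3 each; edgeR adjusted p = 0.972). Their part in the Itga4 values was not tested.

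Itga6, encoding a laminin receptor chain, had 7 windows and sums of 18.3, 31.03 and 22.1 CPM in knockout and 27.6, 19.4 and 21.7 CPM in wild type, which overlapped (log2 fold change 0.07, SE 0.28, edgeR adjusted p = 0.997). Its strongest window, at 27301 bp in intron 1, held 25, 48 and 36 tags in knockout and 26, 19 and 40 in wild type. The TSS window held 15, 27 and 19 tags in knockout and 15, 14 and 1 in wild type. Intron 9 of 25 held the largest single-window fold change of all integrin windows tested, at 42216 bp (chr2:71828655-71829655). It had 12, 17 and 31 tags in knockout and 2, 4 and 0 in wild type, with no overlap (log2 fold change 3.06, SE 1.04, edgeR unadjusted p = 0.0068, adjusted p = 0.824). H3K27ac over input there was 6.66 in knockout and 0.65 in wild type (interaction unadjusted p = 0.00102, edgeR adjusted p = 0.999).

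Itga9 encodes the alpha subunit that with the Itgb1 product binds tenascin-C, and had the most windows, 26. Its sums were 166, 139.8 and 130.3 CPM in knockout and 149, 155 and 172 CPM in wild type, which overlapped (log2 fold change -0.13, SE 0.12, edgeR adjusted p = 0.968). A single window in intron 11 of 27 (chr9:118673931-118674931), at -37261 bp from an internal start site, held 211, 187 and 145 tags in knockout and 116, 135 and 134 in wild type. It averaged 37.7 ± 8.58 CPM in knockout and 30.9 ± 0.819 CPM in wild type (SD, n = 3 each), above 98.5% of all windows in level, with 22.6% of the tags of the gene. The genotypes overlapped in CPM there and its log2 fold change was 0.28 (edgeR adjusted p = 0.998; 0.15 without knockout replicate 1). The window nearest to a TSS, at -111 bp, held 15, 10 and 13 tags in knockout and 12, 12 and 12 in wild type. The window with the smallest p of the whole set lay in intron 8 at -45414 bp (chr9:118665778-118666778) and held 29, 21 and 8 tags in knockout against 29, 48 and 55 in wild type. In CPM every knockout library was below every wild-type one (4.07 ± 2.39 against 10.5 ± 2.61 CPM, SD, n = 3 each; log2 fold change -1.40, SE 0.47, edgeR unadjusted p = 0.0064, adjusted p = 0.821). The other such windows, at 25803 and 26316 bp in intron 3, overlap each other and share tags. They averaged 4.59 and 7.95 CPM in knockout, against 8.47 and 11.2 CPM in wild type.

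Itgav encodes the alphaV chain, which binds proteins with an RGD motif and, with several beta subunits, latent TGF-beta. It had 10 windows, of which 10 were above input in knockout and 9 in wild type. Its sums were 75.7, 79.6 and 63.3 CPM in knockout and 55.0, 70.3 and 56.2 CPM in wild type. Wild-type replicate 2 lay among the knockout libraries. The log2 fold change was 0.26 (SE 0.18, edgeR adjusted p = 0.931), and 0.43 without that library or 0.17 without wild-type replicate 1. Of its 10 windows 8 had a positive fold change. The strongest, an intergenic window at -18466 bp (chr2:83705431-83706431), held 91, 57 and 91 tags in knockout and 58, 92 and 76 in wild type. The TSS window held 39, 71 and 38 tags in knockout and 26, 35 and 29 in wild type, and the genotypes overlapped narrowly in CPM (7.71 at the lowest in knockout, 7.79 at the highest in wild type). The window with the smallest p, at 30016 bp in intron 3, held 28, 19 and 26 tags in knockout and 10, 15 and 5 in wild type, with no overlap in CPM (log2 fold change 1.07, SE 0.66, edgeR unadjusted p = 0.116, adjusted p = 0.998). It was above input in knockout (adjusted p = 0.00155) and not in wild type (0.130), and the interaction had an edgeR unadjusted p of 0.241.

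Itgb5 encodes the beta5 chain, which with alphaV binds vitronectin and takes part in the uptake of dying cells. It had 18 windows with sums of 127, 161 and 108 CPM in knockout and 143, 128 and 120.2 CPM in wild type, and the fitted log2 difference was 0.01 (SE 0.14, edgeR adjusted p = 0.999). The wild-type libraries lay inside the knockout range. At the promoter shown above, the window at -27 bp held 20, 38 and 39 tags in knockout and 21, 21 and 18 in wild type. The adjoining window at 550 bp in intron 1 held 40, 72 and 114 tags in knockout and 28, 41 and 41 in wild type (log2 fold change 0.86, SE 0.38, edgeR unadjusted p = 0.0331, adjusted p = 0.998). Knockout replicate 1 lay among the wild-type libraries there, and without knockout replicate 3 the log2 fold change was 0.32 (edgeR unadjusted p = 0.442). The strongest window of the sum, at 62525 bp in intron 5, held 62, 86 and 65 tags in knockout and 75, 78 and 44 in wild type. A window at -8721 bp, singled out after its values were seen, held 0 tags in each knockout library and 2, 7 and 8 in wild type. With a floor of 3 tags over the 3 knockout libraries, the pooled wild-type tags gave a bound of 6.59-fold. This bound leaves out the spread between wild-type libraries. The wild-type level of 1.33 CPM was itself that of input (ratio 0.976).

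The sum for Itgb5 leaves out much of that gene. Its body held 37 windows, of which the table gives 21 to Umps, whose start lies beyond the far end of Itgb5, since each window goes to the nearest TSS. All 21 were above input in both genotypes, and they include windows stronger than any in the sum. The strongest, at chr16:33921301-33922301, held 139, 177 and 179 tags in knockout and 162, 132 and 108 in wild type, or 34.1 ± 3.00 CPM against 32.8 ± 9.45 CPM (SD, n = 3 each). The next, at chr16:33921906-33922906, shares tags with it and held 148, 197 and 136 tags in knockout and 161, 136 and 111 in wild type. With these windows added, a choice made after the data were seen, Itgb5 had 39 windows and 359 ± 48.4 CPM in knockout against 372 ± 52.0 CPM in wild type (SD, n = 3 each; log2 fold change -0.06, SE 0.10, edgeR adjusted p = 0.988). Its level per window was then 9.20 CPM in knockout and 9.55 CPM in wild type, against 7.34 and 7.25 CPM without them. Whether those windows act on Itgb5 or on Umps was not measured.

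**Figure D5:**
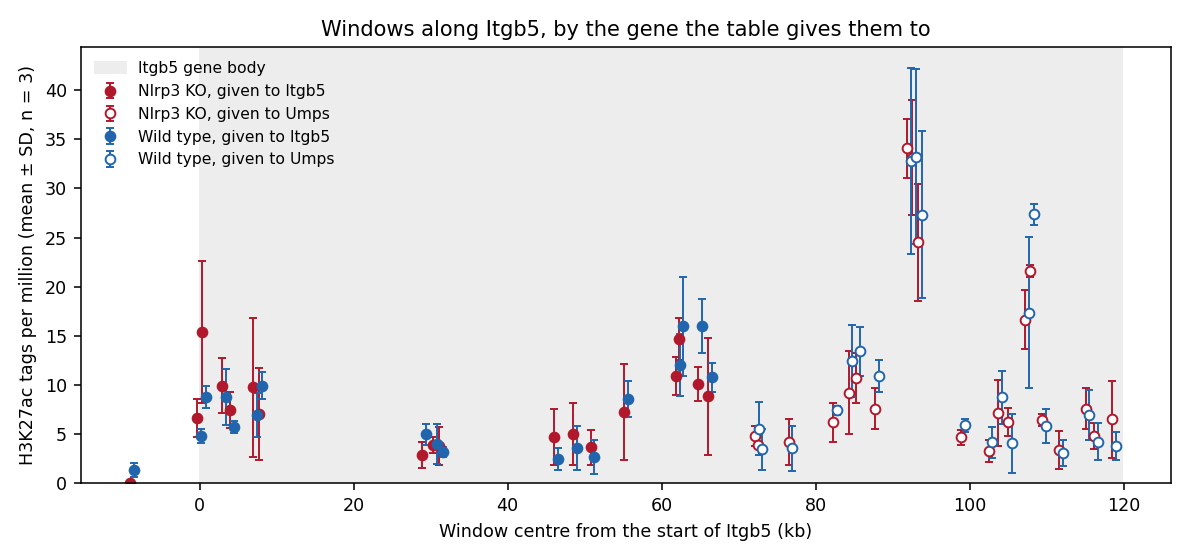
H3K27ac in each window along Itgb5, in CPM (mean ± SD, n = 3), against distance from the start of the gene in kb, with knockout in red and wild type in blue, filled for windows the table gives to Itgb5 and open for those it gives to Umps. The open points reach 34.1 CPM in knockout and 33.2 CPM in wild type, above the filled points, whose highest means are 15.4 and 16.01 CPM.

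The machinery around these receptors was followed with 4 lists of genes. Of 16 other integrin subunits, 13 had a window and 9 were tested, and 7 had a positive fold change (median 0.11, against 0.0013 over all genes). None was called by edgeR in either direction, 0 had an unadjusted p under 0.05, and DESeq2 called 0. The smallest p in that list belonged to Itga8, with 7.25 CPM per window in knockout and 5.68 CPM in wild type (log2 fold change 0.35, SE 0.26, edgeR adjusted p = 0.934). Itgae, the chain of CD103, singled out after its values were seen, had 16.1 CPM per window in knockout and 15.4 CPM in wild type, above all 10 genes described here.

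Genes that switch integrins on or link them to the cytoskeleton had a window for 29 of 33 and 26 tested, with 9 positive (median -0.03). None was called by edgeR in either direction or by DESeq2, and 1 had an unadjusted p under 0.05. It was Tln1, encoding talin, with 6.34 CPM per window in knockout and 8.73 CPM in wild type (log2 fold change -0.44, SE 0.19, edgeR adjusted p = 0.779). All 29 kinases and exchange factors that signal from integrins were tested, 13 of them positive (median -0.03), and none was called by either tool. The 1 with an unadjusted p under 0.05 was Fyn, a Src-family kinase, with 1.56 CPM per window in knockout and 2.67 CPM in wild type (log2 fold change -0.75, SE 0.30, edgeR adjusted p = 0.738). Of 35 ligands and counter-receptors 24 had a window and 15 were tested, 6 of them positive (median -0.06), and none was called by either tool or had an unadjusted p under 0.05. The smallest was that of Icam5, a neuronal counter-receptor of LFA-1, with 3.90 CPM per window in knockout and 7.83 CPM in wild type (log2 fold change -0.95, SE 0.50, edgeR adjusted p = 0.892). Its tags were 43, 19 and 50 in knockout and 43, 17 and 134 in wild type, so wild-type replicate 3 alone stood above the others.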

How the data were processed

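ChIP-seq for H3K27ac and input libraries were measured in 12 samples, 3 per genotype and kind, grouped by the genotype, antibody and title labels. The deposited values are raw tag counts of each library in 67822 windows of 1000 bp, which the authors took unadjusted with HOMER on mm10, per the file headers. The submitters' processing notes also name DESeq2. A scaled copy of the table was not used. The aligner is not given in the sources used here. No per-sample column was left unmapped (0).

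Windows were given to the gene named in the table. Sums per gene add all windows of a gene, so tags shared by overlapping windows count in each. Of the 107 integrin windows, 22 overlapped the one before. edgeR 4.0.16 (R 4.3.3) was fitted over all 40370 windows and all 12148 genes that passed filterByExpr, with TMM factors, a quasi-likelihood test of 3 against 3 libraries and Benjamini-Hochberg adjustment at 0.05. H3K27ac was set against input in a fit of 12 libraries scaled by total tags. The fits were tested on simulated data. Levels are CPM of total tags, and depth ranged from 3726550 to 5028129 tags for H3K27ac. No molecular identifiers are described, so bounds cover counting error only, with a floor of 3 tags. Named were all 10 genes, Nlrp3, and for each gene the window nearest to the TSS, the strongest and that with the smallest p. For each pathway list, its called genes were named or else that with the smallest p. The marker genes S100a9, Ccr2, Ly6c2, Csf3r, Nr4a1, Klrb1c, Lck and Cd4 were named outside this rule and do not stand for their lists. Alternatives were DESeq2 1.42.0, other scalings, no filter, other window sets, left-out libraries and a replicate block. The genes and lists were chosen with earlier results of these data known.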

Additional observations from a re-analysis of the deposited data

Results flagged for a closer look

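These results lie in windows that the sums per gene do not use. A window of Itga4 at -123087 bp, beyond 100 kb of the TSS (chr2:79131839-79132839), had H3K27ac at 2.56 times input in knockout and 4.39 times in wild type. Its tags were 14, 12 and 16 in knockout and 9, 12 and 44 in wild type, with wild-type replicate 3 alone high. A window inside Itga6 that the table gives to Pdk1 had 3.05 times input in knockout and 5.75 times in wild type, and a window inside Itga9 given to Ctdspl had 2.48 times input in knockout and 3.26 times in wild type. Each of these was above input in both genotypes (edgeR adjusted p under 0.05). Inside Itgb5, 21 windows given to Umps were above input in both genotypes.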

How the results depend on the processing

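No integrin gene or window was called between genotypes under any alternative run, so these settings move only counts over all windows or genes and the fold changes. Of all windows, 24 were called in the fit reported, 70 by DESeq2, 68 with no filter and 10 to 29 with 1 library left out. Of all genes, 25 were called, against 16 with total-tag scaling, 48 with no filter, 8 to 18 with 1 library left out, 1 with windows within 1 kb alone and 0 in the input-corrected interaction. Against input, TMM scaling left 7852 of 35932 windows above input in knockout (integrin windows 10 of 81) and 7697 of 34647 in wild type (9 of 75), since it moved the median log2 ratio of all windows to -0.04 and -0.07, from 2.94 and 2.73. With 1 replicate left out, integrin windows above input numbered 76 to 80 in knockout and 68 to 73 in wild type. Same-numbered samples did not deviate together (correlations of -0.00079 to 0.0153). With the replicate number as a block, 21 windows and 15 genes were called, and 79 and 74 integrin windows were above input in knockout and wild type.

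Over the alternatives the log2 fold change of Itga4 ran from 0.65 to 1.73, of Itgax from 0.22 to 0.79 and of Itgav from 0.17 to 0.89, with no change of sign. That of Itgal ran from -0.79 to -0.17. The others changed sign under some setting: Itgam from -0.55 to 0.50, Itgb2 from -0.24 to 0.15, Itga9 from -0.19 to 0.13, Itga6 from -0.19 to 0.28, Itgb1 from -0.29 to 0.29 and Itgb5 from -0.12 to 0.73. The upper ends for Itgax, Itgav, Itgam, Itgb2, Itga9 and Itgb1 and the lower end for Itgal came from the input-corrected interaction. That setting takes in the input libraries too, so it measures another quantity than the other fits. It gave the 1 sign change of Itga9. The cause of the sign changes was not tested.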
